A study of Caenorhabditis elegans with 12 samples.

Results

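The nuclear-encoded respiratory chain genes of *C. elegans* were followed in worms fed 2 strains of *E. coli*. Genes were taken by their symbol in the expression table. The rule took every symbol starting with *nuo-*, *nduf-*, *cox-*, *sdha-*, *sdhb-*, *sdhd-*, *ucr-*, *asb-* or *asg-*, and also *gas-1*, *lpd-5*, *mev-1*, *isp-1*, *cyc-1*, *cyc-2.1* and *atp-1* to *atp-5*. It found 51 genes among 46926 features. They comprise 14 genes of complex I, 5 of complex II, 7 of complex III, 1 cytochrome c gene, 7 structural genes of complex IV, 8 genes named for the assembly of complex IV and 9 genes of complex V. All 51 are annotated as protein coding, and all 51 passed the filter on low counts.

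RNA of whole worms was sequenced after removal of ribosomal RNA. All 12 libraries came from N2, the wild-type laboratory strain. In the Δ*lpp* group, 6 libraries came from worms fed the Δ*lpp* mutant of *E. coli*, which lacks the gene of Braun's lipoprotein, an abundant protein that ties the outer membrane to peptidoglycan. In the BW25113 group, 6 libraries came from worms fed BW25113, the strain with an intact *lpp* gene. Bacterial diet was thus the labelled difference, and no worm gene was altered, so no targeted worm gene was available to check the labels. Worm age when RNA was collected, a batch, and whether replicates were separate cultures are not given in the sources used here. The p-values therefore measure only the spread between these libraries, which may be partly technical.

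The respiratory chain sits in the inner mitochondrial membrane. Complexes I and II pass electrons from NADH and succinate to ubiquinone, complex III passes them to cytochrome c, and complex IV passes them to oxygen. Complexes I, III and IV pump protons, and complex V, the ATP synthase, uses the proton gradient to make ATP. Most subunits are encoded in the nucleus and a few on mitochondrial DNA. In *C. elegans*, *isp-1* and *nuo-6* are known for mutants that live long, *mev-1* for mutants that are sensitive to oxygen and are short-lived, and *gas-1* for mutants that are sensitive to volatile anaesthetics.

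Total counts per library ranged from 21146884 to 23563531 for the Δ*lpp* diet and from 20254430 to 24442423 for BW25113, so depth overlapped. The factors of TMM (trimmed mean of M values, a scaling that assumes most genes do not change) did not overlap, at 1.08 to 1.27 for Δ*lpp* libraries against 0.794 to 0.988 for BW25113 libraries. The choice of scaling therefore moved every fold change. Over the 15266 tested genes, the median log2 fold change (Δ*lpp* over BW25113) was 0.05 with TMM, 0.14 with upper quartile scaling, 0.50 with library size only and 0.51 on the log2(TPM + 1) scale, where TPM is the authors' value per transcript length, with the same total in each library. TMM values lead below, and the members whose call depends on the scaling are named with the counts of calls.

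Transcripts of the respiratory chain were lower in the Δ*lpp* group as a group of genes. With TMM, 50 of the 51 genes fell and 0 rose at an adjusted p under 0.05 (edgeR's quasi-likelihood test, Benjamini-Hochberg over all tested genes), where 32.3% of all tested genes fell and 32.9% rose. *cox-16* was the gene that did not pass. Past a log2 fold change of 1 as well, 13 of the 51 fell, against 15.6% of all tested genes. The drop was thus broad and moderate. The log2 fold changes ran from −1.56 for *ucr-2.2* to −0.14 for *cox-16*, with a median of −0.86, which is 55.1% of the BW25113 level. Between log2 fold changes of −1 and −0.7 lay 25 genes, and 13 lay above −0.7.

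The size of the fall depended on the scaling. Its position against other genes moved little, but library scaling factors shift all genes of a library together. They nearly fix that position in advance, so its stability is no separate support. With library size only, 39 of the 51 fell and 1 rose, with a median of −0.41, where 19.8% of all tested genes fell and 59.3% rose. Past 1 as well, 1 of the 51 fell, against 11.4% of all tested genes. On the log2(TPM + 1) scale 35 fell and 2 rose (limma-trend), with a median of −0.29, where 17.2% of all tested genes fell and 65.9% rose. Past 1 on that scale 0 of the 51 fell, against 8.15%. The genes lower with TMM that were not called with library size only were *nduf-2.2*, *nduf-5*, *nuo-4*, *sdha-2*, *cox-10*, *cox-11*, *cox-14*, *cox-17*, *cox-18* and *cox-19*. Those not called on the log2(TPM + 1) scale were the same genes without *cox-11*, and also *nduf-6*, *ucr-2.3*, *cox-6A* and *asg-1*. Against the median of all tested genes, the members' median was −0.91 with TMM, upper quartile scaling and library size, −0.79 on the log2(TPM + 1) scale and −0.93 on the log2(TPM + 0.1) scale. All 51 genes lay below the median of all genes under each of these scalings.

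**Figure D1:**
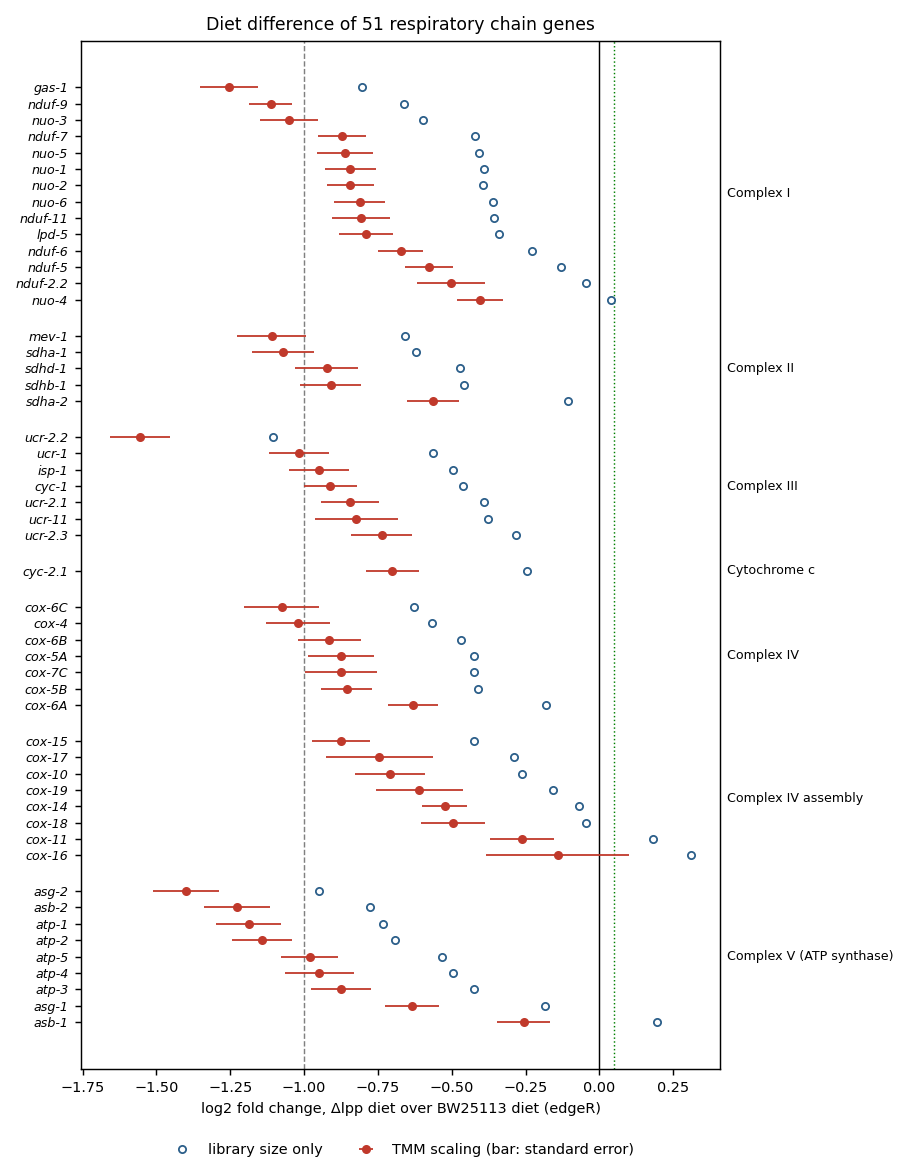
Log2 fold change of each of the 51 genes, Δ*lpp* over BW25113, by complex. Filled points are TMM values with their standard error, open points are values with library size only, the dashed line marks −1 and the dotted line the TMM median of all tested genes (0.05). With TMM all 51 points lie below 0, from −1.56 (*ucr-2.2*) to −0.14 (*cox-16*), and with library size only *nuo-4*, *cox-11*, *cox-16* and *asb-1* lie above 0.

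The libraries separated cleanly by diet over the gene set. The 51 genes held 1.34 to 1.49% of all counts in the Δ*lpp* group (median 1.39%) and 1.82 to 2.17% in BW25113 libraries (median 2.05%), a share that does not use the scaling factors. Of the summed TPM they held 1.61 to 1.76% and 2.0 to 2.27%. Both shares were lower in every Δ*lpp* library than in every BW25113 library. With CPM, here counts scaled to a common library total with TMM, 46 genes had all 6 Δ*lpp* libraries below all 6 BW25113 libraries, where 23.7% of tested genes did so, and 0 lay above, where 17.8% of tested genes did. The other 5 overlapped, namely *cox-11*, *cox-16*, *cox-17*, *cox-19* and *asb-1*. With TPM, 31 genes were lower without overlap, where 13.5% of tested genes did so, 20 overlapped, and 0 were higher without overlap, where 44.7% of tested genes were.

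The libraries of 1 diet were close to each other. The median coefficient of variation of CPM over the 51 genes was 11.1% in the Δ*lpp* group against 12.09% in the BW25113 group. Taken library by library, the members' median log2 CPM relative to the BW25113 mean was −1.04 to −0.66 in the Δ*lpp* libraries and −0.20 to 0.19 in the BW25113 libraries. Replicate 3 was the highest Δ*lpp* library and replicate 1 the lowest BW25113 library, and they did not meet.

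Summed by complex, the difference in TPM was largest in complex V and smallest in the assembly genes. The sum over all 51 genes was 16802 ± 572 TPM (mean and SD of 6 libraries) on the Δ*lpp* diet and 21380 ± 918 TPM on BW25113, a difference of −21.4%. Because all tested genes had a median shift of 0.51 on the log2(TPM + 1) scale, a lower TPM here stands against a background of mostly higher values. Complex V summed to 5328 ± 253 TPM against 7310 ± 406 TPM, or −27.1%. Complex II and complex III came next, at −23.5% and −23.4%, followed by complex IV at −21.2% and complex I at −15.1%. For complexes I to V the lowest BW25113 library lay above the highest Δ*lpp* library. Cytochrome c overlapped, at 2085 ± 85.9 TPM against 2311 ± 118 TPM. The assembly genes also overlapped, at 309.9 ± 17.1 TPM against 324 ± 11.5 TPM, or −4.41%.

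**Figure D2:**
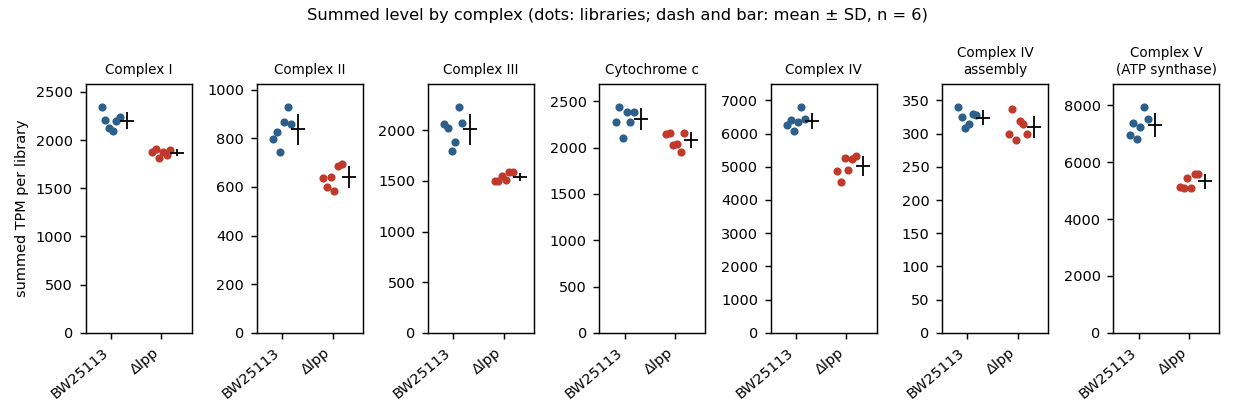
Summed TPM of the genes of each complex, 1 dot per library, with the mean and SD of 6 libraries beside the dots and every axis starting at 0. Complexes I to V separate by diet, with complex V at 5076 to 5601 TPM in the Δ*lpp* group against 6818 to 7943 TPM in the BW25113 group, while cytochrome c and the assembly genes overlap.

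Levels differed far more between genes than between diets. The highest mean TPM over all libraries was that of *cyc-2.1*, at 2198 TPM, and the lowest was that of *cox-10*, at 7.34 TPM. Structural genes of complexes IV and V took the ranks after cytochrome c, led by *cox-7C* at 1217 TPM in the Δ*lpp* group against 1580 TPM in the BW25113 group. All 8 assembly genes lay below the structural genes of complex IV, the highest being *cox-14* at 123 and 118 TPM. Across the 51 genes, the log2 fold change went down as mean TPM went up (Spearman's rho −0.43, n = 51 genes, which share the same libraries). These levels favour short transcripts. The authors' TPM took 12.15 counts per TPM and kilobase at the median of the 14 genes with under 600 bases of exon, and 25.5 counts at the median of the 25 genes with at least 1000 bases. *ucr-11*, with 281 bases of exon, took 4.79. Comparisons of level between short and long genes carry that difference. The log2 fold change of *ucr-11* went from −0.38 with library size only to −0.39 on the log2(TPM + 1) scale. That of *gas-1*, with 1688 bases of exon, went from −0.80 to −0.64, and that of *cox-18*, with 1073 bases, from −0.05 to −0.11. Whether comparisons of 1 gene between diets in TPM also carry a length difference was not tested.

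**Figure D3:**
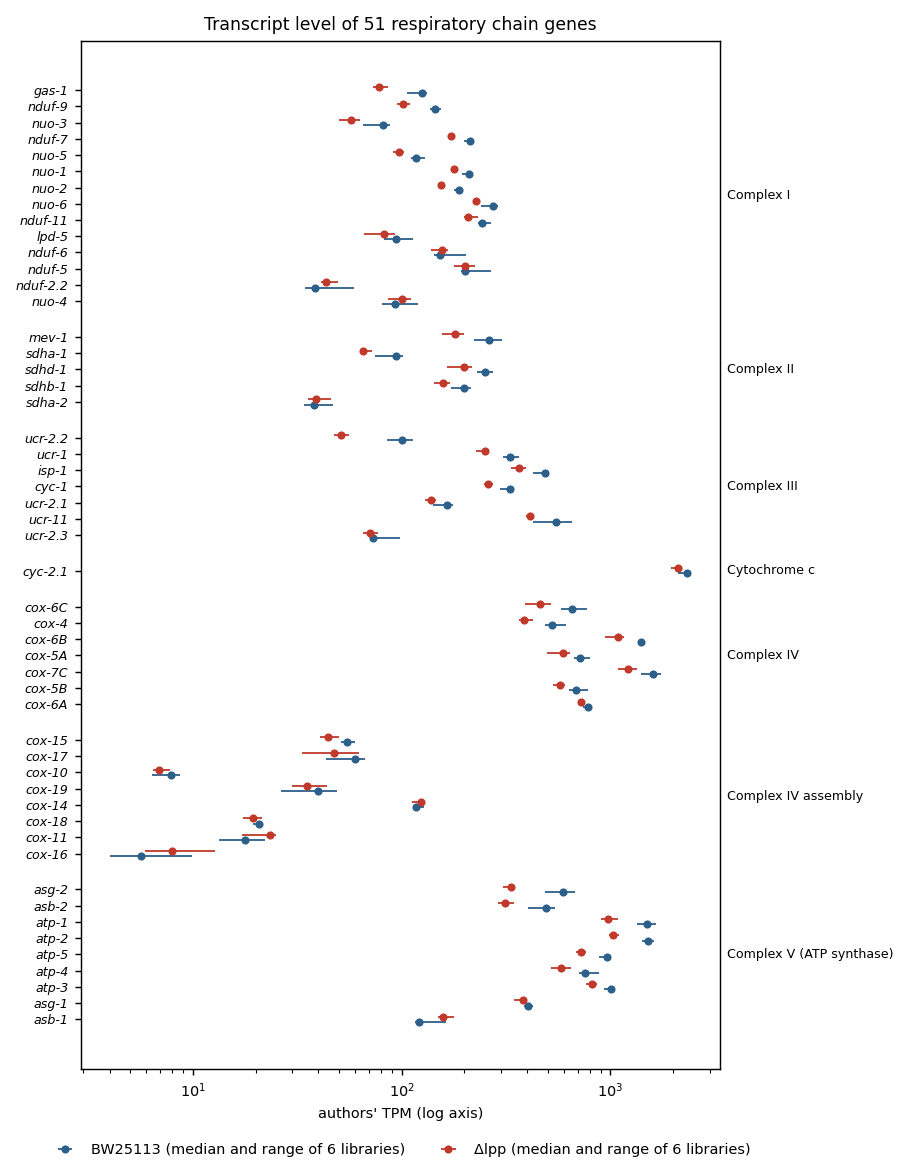
TPM of each of the 51 genes on a log axis, in the Δ*lpp* and the BW25113 group, with points at the median and bars over the range of 6 libraries. Levels span from 7.34 TPM (*cox-10*, mean of all libraries) to 2198 TPM (*cyc-2.1*), and 31 of the 51 genes lie lower in the Δ*lpp* group with no overlap.

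Complex I, the NADH dehydrogenase, fell in all 14 genes, with a median log2 fold change of −0.83 and 3 genes past 1. Its core subunits carry the flavin and most iron-sulfur clusters, and its accessory subunits surround them. *gas-1* (WBGene00001520, minus strand of chromosome X, 15586786 to 15590397) encodes the core subunit next to the quinone site and fell most in the complex. It measured 112, 131 and 148 CPM (lowest, median and highest library) in the Δ*lpp* group against 261, 321 and 356 CPM in the BW25113 group. Every Δ*lpp* library lay below every BW25113 library. The log2 fold change was −1.25 ± 0.0985 (SE, edgeR adjusted p 2.7e-09), and −0.80 with library size only.

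The other core genes of complex I lay near the middle of the set. *nuo-1*, which encodes the NADH-binding flavoprotein, had a log2 fold change of −0.84. *nuo-5*, for the largest iron-sulfur subunit, had −0.86, *nduf-7* had −0.87 and *nuo-2* had −0.84. These 4 values lie within 1 SE of each other. *nduf-2.2*, the autosomal paralog of *gas-1*, measured 55.7, 62.7 and 68.9 CPM in the Δ*lpp* group against 74.2, 80.6 and 122 CPM for BW25113. Its log2 fold change was −0.50 ± 0.114 (edgeR adjusted p 0.000844). With library size only it was −0.05 (edgeR adjusted p 0.681), and on the log2(TPM + 1) scale it was 0.12.

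Among the accessory genes of complex I, *nduf-9* measured 125, 137 and 147 CPM in the Δ*lpp* group against 278, 298 and 312 CPM in the BW25113 group. The groups lay far apart, and the log2 fold change of −1.11 ± 0.0732 had the smallest SE of the 13 genes past 1 (edgeR adjusted p 2.23e-10). *nuo-3* measured 29.5, 33.3 and 37.1 CPM against 55.2, 73.5 and 75.6 CPM, with a log2 fold change of −1.05 ± 0.0973. The smallest fall of the complex was that of *nuo-4*, at 209, 221 and 233 CPM against 268, 291 and 337 CPM. It fell by 0.40 on the log2 scale with TMM (SE 0.0776, edgeR adjusted p 0.000183) and stood at 0.040 with library size only. *nuo-6*, the gene of the complex with the highest TPM, measured 90.2, 102 and 115 CPM against 155, 183 and 193 CPM, a log2 fold change of −0.81. The remaining 4 accessory genes, *lpd-5*, *nduf-5*, *nduf-6* and *nduf-11*, lay between −0.81 and −0.58. *nduf-5* did not pass with library size only (−0.13, edgeR adjusted p 0.23) or on the log2(TPM + 1) scale (−0.05, limma-trend adjusted p 0.562), and *nduf-6* did not pass on the latter (−0.08, limma-trend adjusted p 0.401).

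Complex II, succinate dehydrogenase, links the tricarboxylic acid cycle to the chain. All 5 genes fell, with a median of −0.92, and 2 lay past 1. *mev-1*, for the large membrane anchor, measured 75.9, 98.6 and 109 CPM in the Δ*lpp* group against 167, 207 and 259 CPM in the BW25113 group, without overlap. Its log2 fold change was −1.11 ± 0.116 (edgeR adjusted p 1.29e-07). *sdha-1*, for the flavoprotein that binds succinate, measured 150, 172 and 186 CPM against 284, 380 and 419 CPM, with a log2 fold change of −1.07 ± 0.104. Its paralog *sdha-2* measured 73.9, 79.4 and 88.4 CPM against 103, 117 and 142 CPM, a log2 fold change of −0.56 ± 0.088. Scaled by library size alone, *sdha-2* had −0.11 and no longer passed (edgeR adjusted p 0.183), and it had 0.048 on the log2(TPM + 1) scale. The iron-sulfur subunit *sdhb-1* and the small anchor *sdhd-1* lay at −0.91 and −0.92.

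Complex III, which hands electrons to cytochrome c, held the gene with the largest fall of the whole set. All 7 genes fell, with a median of −0.91, and 2 lay past 1. *ucr-2.2*, 1 of 3 genes for the core 2 subunit (WBGene00011679, plus strand of chromosome X, 15173904 to 15178145), measured 57.9, 67.6 and 78.0 CPM in the Δ*lpp* group against 168, 203 and 240 CPM in the BW25113 group. Its highest Δ*lpp* library lay below the lowest BW25113 library. The log2 fold change was −1.56 ± 0.102 (edgeR adjusted p 2.06e-10), which is 34% of the BW25113 level. It was the only member past 1 with library size only, at −1.11.

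The other core 2 genes moved less. *ucr-2.1* measured 154, 173 and 206 CPM against 271, 331 and 367 CPM, a log2 fold change of −0.84 ± 0.0973. *ucr-2.3* measured 79.1, 84.6 and 101 CPM against 122, 139 and 180 CPM, with −0.74 ± 0.102. Both separated by diet in CPM and overlapped in TPM, and *ucr-2.3* did not pass on the log2(TPM + 1) scale (−0.13, limma-trend adjusted p 0.152). The core 1 gene *ucr-1* measured 347, 393 and 456 CPM against 650, 815 and 937 CPM and had −1.02 ± 0.103. The catalytic genes lay between these values. *isp-1*, for the Rieske iron-sulfur protein, measured 305, 371 and 421 CPM against 594, 735 and 808 CPM, with a log2 fold change of −0.95, and *cyc-1*, for cytochrome c1, had −0.91. The short *ucr-11*, with the highest TPM of the complex, measured 17.7, 21.9 and 24.7 CPM against 29.7, 36.7 and 54.9 CPM, with −0.82.

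Cytochrome c is the soluble carrier between complexes III and IV. *cyc-2.1* measured 527, 561 and 633 CPM in the Δ*lpp* group against 794, 960 and 1007 CPM in the BW25113 group, without overlap. It fell less than the median of the set, at −0.70 ± 0.0895 (edgeR adjusted p 1.78e-06), and with library size only it had −0.25 (edgeR adjusted p 0.00117).

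Complex IV, cytochrome c oxidase, showed a contrast between its structural subunits and its assembly genes. All 7 structural genes fell, with a median of −0.88 and 2 past 1. *cox-6C* measured 60.8, 75 and 91.7 CPM against 130, 153 and 203 CPM, with −1.08 ± 0.128. *cox-4* measured 249, 299.7 and 331 CPM against 479, 593 and 734 CPM, with −1.02 ± 0.109. Neither overlapped between diets. *cox-7C*, the gene of the complex with the highest TPM, measured 149, 189.8 and 228 CPM against 271, 340.3 and 424 CPM, with −0.88. *cox-6A* fell least, at 186, 209 and 236 CPM against 288, 322 and 361 CPM, with −0.63 ± 0.0852. On the log2(TPM + 1) scale *cox-6A* no longer passed (limma-trend adjusted p 0.0687), and the other 6 structural genes did.

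The assembly genes, whose yeast and human counterparts deliver heme and copper to the enzyme or help insert its subunits, fell less. With TMM 7 of the 8 fell, with a median of −0.57 and 0 past 1. *cox-15*, for a step of heme a synthesis, fell most, at 49.3, 56.1 and 63 CPM against 84, 105 and 119 CPM, with −0.87 ± 0.0995. It was also the only assembly gene that fell with library size only or on the log2(TPM + 1) scale. *cox-14* measured 53, 60.1 and 63.2 CPM against 75.6, 86.3 and 90.1 CPM, with −0.52 under TMM and 0.051 on the log2(TPM + 1) scale. *cox-16* measured 1.82, 2.38 and 3.87 CPM against 2.01, 2.45 and 4.59 CPM, with −0.14 ± 0.242 (edgeR adjusted p 0.625), so no difference was detectable at that depth. *cox-11*, a copper-delivery gene, had −0.26 ± 0.110 (edgeR adjusted p 0.0443) with TMM and 0.31 on the log2(TPM + 1) scale (limma-trend adjusted p 0.0365), so its direction followed the scaling. The remaining 4 genes, *cox-10*, *cox-17*, *cox-18* and *cox-19*, lay between −0.74 and −0.50. The difference between structural and assembly genes was not tested, and the assembly genes had far lower counts.

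Complex V, the ATP synthase, had the lowest median of the complexes, −0.98, and held 4 of the 13 genes past 1. All 9 genes fell with TMM. The catalytic head is built of alpha and beta subunits, encoded by *atp-1* and *atp-2*. *atp-1* measured 1746, 1955 and 2222 CPM in the Δ*lpp* group against 3597, 4569 and 5345 CPM in the BW25113 group, with −1.19 ± 0.110 (edgeR adjusted p 2.64e-08). *atp-2* measured 1738, 1953 and 2242 CPM against 3674, 4377 and 4933 CPM, with −1.14 ± 0.101 (edgeR adjusted p 1.43e-08). These were the members with the highest CPM, both with no overlap, and the alpha and beta values lay within 1 SE of each other. The stalk genes *atp-3*, *atp-4* and *atp-5* had −0.88, −0.95 and −0.98.

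The 2 subunits of the ATP synthase with duplicated genes split by gene copy. *asb-2*, for the b subunit of the stalk, measured 267, 309.6 and 379.9 CPM against 595, 776 and 889 CPM, with −1.23 ± 0.112 (edgeR adjusted p 2.03e-08). Its paralog *asb-1*, known in *C. elegans* as the germline form, measured 146, 164 and 174.1 CPM against 174.1, 188 and 245 CPM, and the groups overlapped. *asb-1* fell by 0.26 on the log2 scale with TMM (SE 0.0899, edgeR adjusted p 0.0185). It rose with library size only, by 0.20 (edgeR adjusted p 0.0233), and on the log2(TPM + 1) scale, by 0.33 (limma-trend adjusted p 0.00241). *asg-2*, for the g subunit, measured 87.8, 108 and 126 CPM against 224, 281 and 355 CPM, with −1.4 ± 0.113 (edgeR adjusted p 3.94e-09), the largest fall after *ucr-2.2*. *asg-1* measured 76.4, 92.8 and 108 CPM against 125, 146 and 163 CPM, with −0.64 ± 0.092. It did not pass on the log2(TPM + 1) scale (−0.10, limma-trend adjusted p 0.0702).

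Because the ratio of 2 genes in 1 library does not use the scaling between libraries, the paralogs were compared as shares of their summed TPM. Of 8 such pairs, 7 differed between diets. The test was a two-sided exact permutation over the 12 libraries of the log2 TPM ratio, adjusted over the 8 pairs. How often 2 arbitrary genes would differ in this way was not tested, where 32.3% of all tested genes fell and 32.9% rose with TMM. The pairs among *ucr-2.1*, *ucr-2.2* and *ucr-2.3* share genes, so they are not separate results. *asb-1* took 30.9 to 38.1% of the b subunit pair in the Δ*lpp* group (33.6 ± 2.69%) against 17.9 to 28.7% for BW25113 (21 ± 4.13%). The log2 ratio was higher by 0.94 (exact p 0.00216, the smallest this design can give, adjusted p 0.00346). *asg-1* took 53.3 ± 1.80% of the g subunit pair in the Δ*lpp* group against 40.9 ± 3.17% in the BW25113 group. Its log2 ratio was higher by 0.73, with the same p-values, and the groups did not overlap.

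In complex III, *ucr-2.1* took 72.2 to 73.4% of its pair with *ucr-2.2* in the Δ*lpp* group against 61.0 to 62.8% in the BW25113 group. The log2 ratio was higher by 0.71 (exact p 0.00216, adjusted p 0.00346). *ucr-2.3* took 57.9 ± 2.13% of its pair with *ucr-2.2* against 43.9 ± 5.24%, a log2 ratio higher by 0.82 with the same p-values. *ucr-2.1* and *ucr-2.3*, set against each other, had a log2 ratio lower by 0.11 that did not pass (exact p 0.413). Without replicate 3 of the BW25113 group that difference was −0.22 and passed (exact permutation test, adjusted p 0.026).

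*nduf-2.2* took 32.4 to 40.3% of its pair with *gas-1* in the Δ*lpp* group against 20.7 to 35.8% in the BW25113 group. The groups overlapped, and the log2 ratio was higher by 0.77 (exact p 0.00866, adjusted p 0.0115). *sdha-2* took 34.7 to 41.6% of its pair with *sdha-1* against 26.3 to 38.7%, again with overlap, and the log2 ratio was higher by 0.50 (exact p 0.013, adjusted p 0.0148). The overlap in both pairs came from replicate 3 of the BW25113 group, which also had the highest BW25113 ratio in the *asb-1*/*asb-2*, *asg-1*/*asg-2* and *ucr-2.3*/*ucr-2.2* pairs. Without it the log2 ratios were higher by 0.91 for *nduf-2.2* and 0.62 for *sdha-2*, each with an adjusted p of 0.00247 (exact permutation test).

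**Figure D4:**
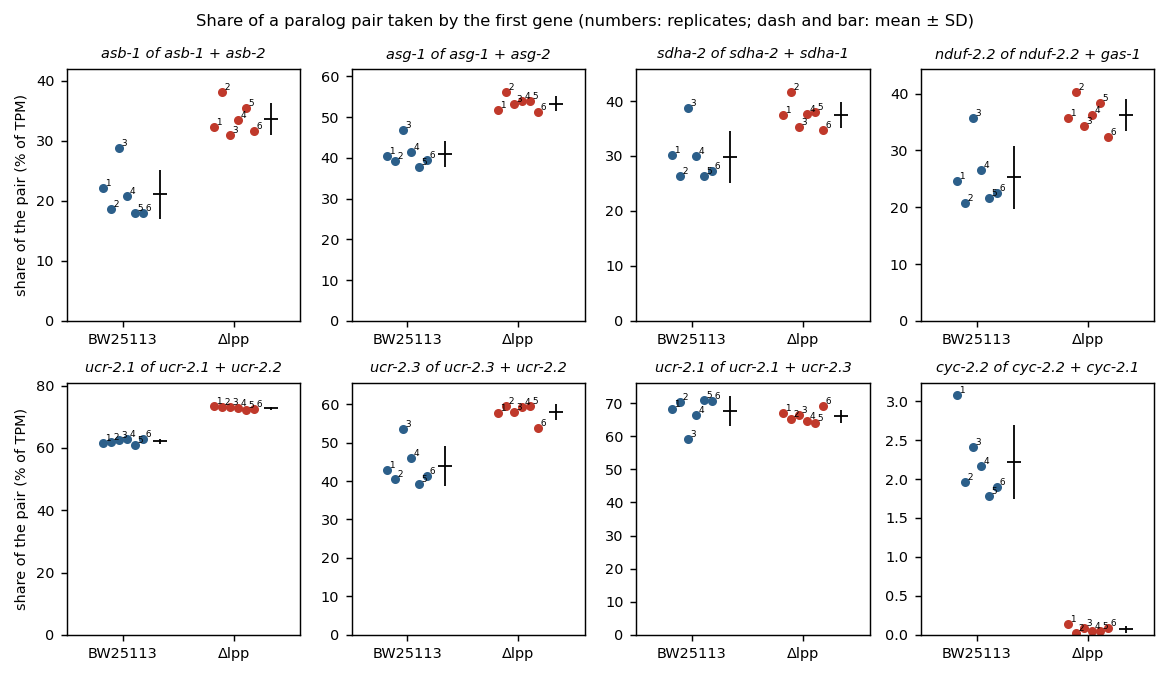
Share of the summed TPM of a paralog pair taken by the first gene named, 1 dot per library with its replicate number, and the mean and SD of 6 libraries beside the dots. *asb-1*, *asg-1*, *sdha-2*, *nduf-2.2* and *ucr-2.3* take a larger share of their pair with the X-linked gene in the Δ*lpp* group, *ucr-2.1* and *ucr-2.3* overlap when set against each other, and *cyc-2.2* falls from 2.22% to 0.0707% of the cytochrome c pair.

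The cytochrome c pair went the other way, and much further. *cyc-2.2*, the paralog of *cyc-2.1* and no member of the set, held 249 to 401 counts per library in the BW25113 group and 2 to 15 counts in the Δ*lpp* group. It took 2.22 ± 0.476% of the pair in the BW25113 group and 0.0707 ± 0.0427% in the Δ*lpp* group, a log2 ratio lower by 5.23 (exact p 0.00216, adjusted p 0.00346). With so few counts in the Δ*lpp* group, the size of that fold is loose. The difference became −4.33 when 1 TPM was added to both genes. *cyc-2.1* itself thus carried nearly all cytochrome c transcript in both groups.

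The genes lay on all 6 chromosomes, 16 on chromosome I, 6 on II, 13 on III, 6 on IV, 4 on V and 6 on X. A split by X linkage was made after the values were seen, and is given as a description. The 6 X-linked genes were *gas-1*, *sdha-1*, *ucr-2.1*, *ucr-2.2*, *asb-2* and *asg-2*, each of which has a paralog in the set. Their median log2 fold change was −1.24, and 5 of the 6 lay past 1. The 45 autosomal genes had a median of −0.84 with 8 past 1. Of all tested genes 15.6% fell past 1 with TMM, and that share was not taken by chromosome. Over all tested genes the order was the opposite, with a median of 0.17 for 2165 X-linked genes and 0.04 for 13087 autosomal genes.

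Other genes of the same machinery also moved down, where 32.3% of all tested genes fell with TMM. A list of 22 further subunits known mostly by clone names fell in 22 of 22 genes with TMM, with a median of −0.86, the same as that of the 51 genes, and 3 past 1. Library size only gave them a median of −0.41, with 19 genes lower and 0 higher, where 19.8% of all tested genes fell. The subunits encoded on mitochondrial DNA were lower still. Of that list 10 genes were tested and 10 of 10 fell, all past 1, with a median of −1.77, or −1.31 with library size only. Their log2 fold changes ran from −2.16 for *atp-6*, a membrane subunit of complex V, to −1.24 for *ctc-1*, the catalytic core of complex IV. The summed CPM of the mitochondrial genes was 4251 to 9065 in the Δ*lpp* group against 18891 to 26906 in the BW25113 group.

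Lists of genes that feed or serve the chain differed in how far they moved. Among all tested genes, 32.3% fell and 32.9% rose with TMM. The tricarboxylic acid cycle fell in 16 of 16 genes, with a median of −0.78 and 3 past 1. With library size only, 13 of the 16 were lower and 0 higher. The mitochondrial ribosome had a median of −0.45, with 50 of 70 tested genes lower and 1 higher. With library size only its median was 0.00, with 13 genes lower and 14 higher. Over all tested genes that scaling gave a median of 0.50, with 19.8% lower and 59.3% higher. Coenzyme Q synthesis, which makes the carrier between complexes I or II and III, had 4 of 8 genes lower and 1 higher, with a median of −0.26. Scaled by library size alone, that list had 1 gene lower and 2 higher, with a median of 0.19. Of the ATP exchange and uncoupling genes, 5 of 7 were tested, with 4 lower and 1 higher and a median of −0.87. The ADP/ATP carriers differed among themselves, at −0.52 for *ant-1.1*, −5.18 for *ant-1.3* and −6.33 for *ant-1.4*. *mai-2*, an inhibitor of the ATP synthase, had −0.87, and the uncoupling gene *ucp-4* rose by 1.0 on the log2 scale.

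**Figure D5:**
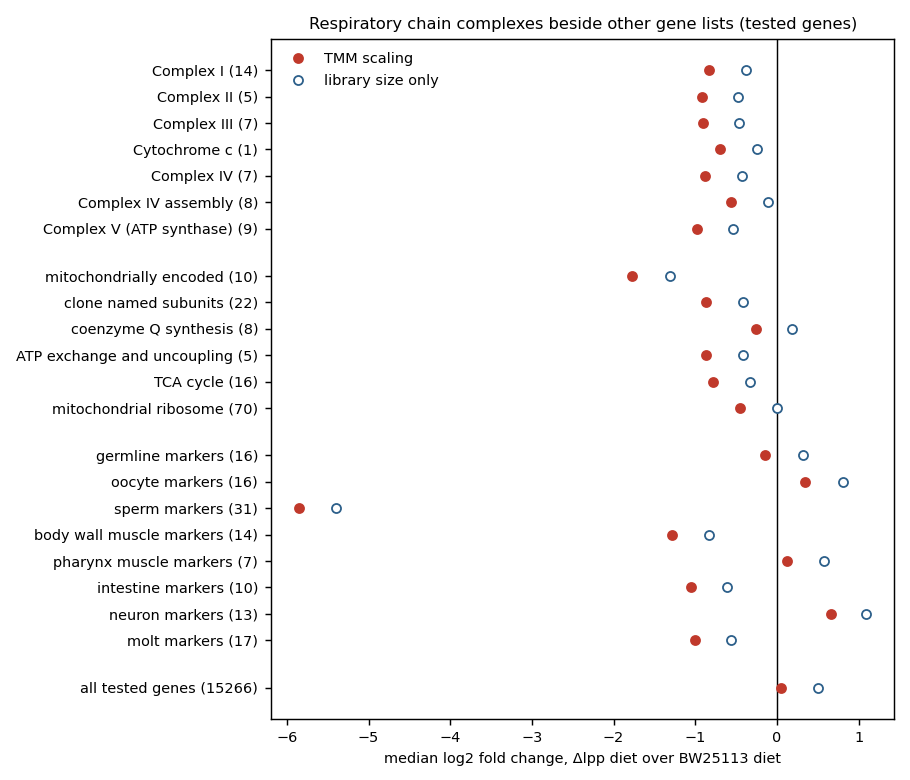
Median log2 fold change, Δ*lpp* over BW25113, of each complex, of other mitochondrial lists and of marker lists, with the number of tested genes in brackets. Filled points are TMM values and open points are values with library size only. The complexes lie between −0.98 and −0.57 with TMM, the mitochondrially encoded genes at −1.77, body wall muscle markers at −1.29 and sperm markers at −5.85.

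Markers of several tissues moved with diet too. Among all tested genes, 32.3% fell and 32.9% rose with TMM. In whole worms, fewer cells of a type and less RNA per cell cannot be told apart. Body wall muscle markers fell in 13 of 14 genes (1 rose), with a median of −1.29, and their summed CPM was 6234 to 7858 in the Δ*lpp* group against 14991 to 21263 in the BW25113 group. Intestine markers fell in 8 of 10 tested genes and rose in 2, with a summed CPM of 3830 to 5664 against 7404 to 9756. Sperm markers fell in 31 of 31 tested genes of 39 listed, with a summed CPM of 15.6 to 35.0 against 927 to 1615, and 5 of the 39 were at 0 in all Δ*lpp* libraries against 2 in all BW25113 libraries. Molt markers fell in 16 of 17 genes and rose in 0, with a summed CPM of 1012 to 1214 against 1763 to 3198. With library size only, 13 body wall muscle markers were lower and 1 higher, and 7 intestine markers were lower and 2 higher. That scaling gave 31 sperm markers lower and 0 higher, and 11 molt markers lower and 0 higher. Of all tested genes 19.8% were lower with it and 59.3% higher.

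Other marker lists went up or stayed mixed, where 32.9% of all tested genes rose and 32.3% fell with TMM. Neuron markers rose in 12 of 13 genes, with a summed CPM of 798 to 969 in the Δ*lpp* group against 516 to 713 in the BW25113 group. Oocyte markers rose in 8 of 16 genes and fell in 0, with a summed CPM of 10508 to 14719 against 5573 to 11250. Germline markers rose in 4 of 16 genes and fell in 6, at 2192 to 2873 against 2325 to 3582. Pharynx muscle markers rose in 3 of 7 and fell in 1, at 1696 to 2044 against 2077 to 2927. The lower pharynx sum rested on *mlc-1*, at a mean of 734 CPM against 1566 CPM, while the median log2 fold change of that list was 0.13. With library size only these balances shifted upward, to 16 oocyte markers higher and 0 lower, 9 germline markers higher and 3 lower, and 6 pharynx markers higher and 1 lower. That scaling moved all tested genes upward too, with 59.3% higher and 19.8% lower. The germline counts lay near the shares of all tested genes under both scalings. No marker of the muscle, neuron, oocyte, germline, pharynx, intestine or molt lists was at 0 in all libraries of a diet. The part of these tissues in the respiratory chain result was not tested.

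Some counts share sequence with neighbouring genes. On the same strand, exons of 7 members overlap exons of another annotated gene, namely *nuo-1*, *nuo-3*, *cox-6B*, *cox-14*, *cox-16*, *atp-1* and *atp-4*, and how the counting split those reads is not given in the sources used here. Exons of 11 members overlap a gene on the opposite strand, among them *gas-1*, *mev-1*, *ucr-2.2* and *asg-1*. Whether the counting used strand is not given either, so it is not known whether reads of these genes were kept apart from those of their antisense partners. The paralogs named above share coding sequence, and how reads that fit both were counted was not given.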

How the data were processed

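Estimated counts and TPM were taken for 12 libraries, 6 per diet, from 1 deposited table. Per the study's methods, Seqtk cleaned the reads, HISAT2 mapped them, StringTie gave counts and RNAnorm gave TPM. The submitters' processing notes name the WBcel235 build. The deposited estimated counts are not normalized, and 8.97% of them are not whole (tolerance 0.0005). The authors' TPM values are scaled by length and library total. The 2 columns of the authors' group means were not used, and 0 library columns were left over. The worm annotation was that of Ensembl for WBcel235, and gene positions are from it.

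Estimated counts were rounded and tested with edgeR 4.0.16 (glmQLFit, robust, glmQLFTest, TMM, no covariate, filterByExpr at its minimum of 10 counts and 15 in total). The 15266 tested genes hold 99.9% of all counts. A call needed an adjusted p under 0.05, and the stricter call a log2 fold change over 1 as well. Library pairs within a diet differed by more than sampling noise (chi-square per degree of freedom 4.35 to 69.7). On simulated counts edgeR recovered 100 of 100 genes changed by 1.5 on the log2 scale and 83 of 100 changed by 0.6, with 13 false calls, in 15113 genes. The simulation changed only those genes, up or down at random, at a dispersion of 0.02. It built in no difference in TMM factors between the diets, so its false calls do not cover the choice of scaling. Paralog ratios were log2 ratios of the authors' TPM of both genes, with nothing added. Further software was matplotlib 3.10.9, pandas 2.3.3, numpy 2.4.6, Python 3.11.15, DESeq2 1.42.0, limma 3.58.1 and R 4.3.3.

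The members, lists and tests were chosen with earlier results of these data known. Named genes were the members past the stricter call, the members with the highest and lowest fold change and the highest TPM in each complex, and the paralogs. Other genes were named with their values in view. Alternatives were DESeq2, RLE and upper quartile factors, library size only, a block for the replicate number, each library left out, no filter, a minimum of 10 counts in each library, and limma-trend on TPM with 1 or 0.1 added before the log2. Counting error is the only error that depth limits cover.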

Additional observations from a re-analysis of the deposited data

Results flagged for a closer look

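A library stood apart from the other 5 of its diet in 2 of 134 groups examined by Dixon's test for a single distant value, where chance gives about 1 in 20, and in 0 groups of single members' CPM. The log2 TPM ratio of *sdha-2* to *sdha-1* was −0.66 in replicate 3 of the BW25113 group, with the next highest library at −1.21. The log2 TPM ratio of *ucr-2.3* to *ucr-2.2* was 0.23 in replicate 6 of the Δ*lpp* group, the lowest of its diet.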

How the results depend on the processing

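The fall of the set kept its direction under each alternative run, while its size followed the scaling. Genes called lower numbered 35 to 50 over all alternatives. Genes called higher numbered 1 with library size only and 2 on each TPM scale, and 0 under the others. Genes lower and past a log2 fold change of 1 numbered 13, against 14 with RLE factors or DESeq2, 8 with upper quartile scaling, 1 with library size only and 0 on each TPM scale. The median log2 fold change of −0.86 became −0.29 on both TPM scales and −0.41 with library size only. Leaving out each library in turn gave 49 to 50 genes lower, 0 higher, 10 to 15 past the fold limit and a median of −0.90 to −0.80.

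Single genes changed sign as follows. With library size only, *nuo-4* had 0.040, *cox-11* 0.18, *cox-16* 0.31 and *asb-1* 0.20. With log2(TPM + 1) and log2(TPM + 0.1), *nduf-2.2* had 0.12 and 0.12, *nuo-4* 0.091 and 0.092, *sdha-2* 0.048 and 0.049, *cox-11* 0.31 and 0.32, *cox-14* 0.051 and 0.051, *cox-16* 0.38 and 0.43, and *asb-1* 0.33 and 0.33. Leaving out each library in turn, *cox-16* ran from −0.27 to 0.015, the latter without replicate 3 of the BW25113 group. *cox-11* lost its call without any 1 of the Δ*lpp* replicates 1 to 4 or of the BW25113 replicates 1 to 4.

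The replicate numbers did not pair the libraries, since same-numbered libraries correlated at −0.17 to 0.33 in their deviations from the diet means and 1 of 6 correlated best with its own number. With the replicate block in edgeR 49 genes were lower. The paralog ratios were also tested with the replicate block (exact sign-flip permutation). The differences were 0.94 for *asb-1*, 0.73 for *asg-1*, 0.71 for *ucr-2.1* over *ucr-2.2*, 0.82 for *ucr-2.3* over *ucr-2.2* and −5.23 for *cyc-2.2*. Each of these had an adjusted p of 0.05 (exact sign-flip permutation), which does not lie under 0.05. Each also reached the smallest unadjusted p that sign flips over 6 replicate numbers can give. The differences of 0.50 for *sdha-2* and 0.77 for *nduf-2.2* each had an adjusted p of 0.0714 (exact sign-flip permutation). Leaving out each library in turn, the differences ran from 0.89 to 1.07 for *asb-1*, 0.69 to 0.80 for *asg-1*, 0.45 to 0.62 for *sdha-2*, 0.70 to 0.91 for *nduf-2.2*, 0.70 to 0.72 for *ucr-2.1* over *ucr-2.2*, 0.77 to 0.93 for *ucr-2.3* over *ucr-2.2*, −0.22 to −0.068 for *ucr-2.1* over *ucr-2.3* and −5.49 to −4.90 for *cyc-2.2*. Depth limits *cox-16*, *cox-17* and *cox-19*, the members with the lowest CPM. The cause of these changes with the setting was not tested.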
